A study of Mus musculus with 22 samples.

Results

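Late Neurectoderm is one of the 25 cell types into which the authors sorted single cells of mouse gastruloids, and it holds 1381 of the 77674 cells analysed here. A cell was taken as a member where the authors' deposited cell table gives its cluster as Late Neurectoderm, and its counts were read from the matrix of its own lane by its barcode. Gastruloids are aggregates of mouse embryonic stem cells that break symmetry and form derivatives of the germ layers in suspension culture. All groups share 1 wild-type background, the E14Tg2A line (an established mouse embryonic stem cell line), 1 seeding density of 300 cells per well, N2B27 medium and a pulse of CHIR99021, a GSK3 inhibitor that activates Wnt signalling, so no untreated or mutant control exists in the series. The groups differ by day of culture, from day 3 to day 5, and by experiment.

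In the MULTI-seq experiments each gastruloid was dissociated in its own well and its cells were tagged with a lipid-anchored DNA barcode before pooling, which lets a cell be traced to 1 gastruloid. The first MULTI-seq experiment gave 24 gastruloids of day 5. The second gave 11 of day 4 and 12 of day 4.5 from 1 pool, beside a further pool of the same days without gastruloid calls. A further gastruloid of day 4, with 9 cells, fell below the minimum of 30 cells, and 4 lanes of day 3 and day 3.5 of the second experiment (pools A and C) were not used here. The third gave 24 of day 3, then 16 of day 3.5 and 16 of day 4 in 1 pool, and 16 of day 4.5 and 16 of day 5 in another pool. Untagged bulk suspensions of day 3 and of day 4 were also run. All gastruloids came from the same cell line, so the p-values below measure the spread between separately grown aggregates and not between genotypes or lines.

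The neurectoderm is the part of the ectoderm that forms the neural plate and then the neural tube. Its progenitors carry the SoxB1 factors Sox1, Sox2 and Sox3, and take up patterning factors such as Pax6 and Irx3 as the tube forms. Posterior neural tissue grows from a caudal progenitor pool that is held by Wnt and FGF signals and marked by Nkx1-2 and Cdx2, whereas retinoic acid and Notch signalling act in the neural tube itself. Position along the head-to-tail axis is recorded in Hox genes, with the forebrain and midbrain free of Hox transcripts.

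Of the 1381 cells, 844 (61.1%) carried a gastruloid call, against 69.2% of all cells. A further 345 (25.0%, against 13.7% of all cells) lay in lanes without gastruloid calls. They were 311 in the untraced pool of the second experiment and 32 and 2 in the untagged day 4 and day 3 suspensions. The shares of 61.1% and 69.2% include these lanes. Another 99 cells were negative for barcodes and 93 were called doublets. None of these cells enter a comparison between gastruloids. In the lanes of the third experiment and of the second's pool with gastruloid calls, doublet calls made up 9.86% of all 943 Late Neurectoderm cells (95% exact interval 8.03 to 11.9%, counting error only). Of the 56391 cells of all other types in these lanes they made up 8.34% (8.11 to 8.57%). The median UMI count per cell was 25719, and within lanes it was 0.667 to 1.19 times the lane's median. Of the members' barcodes, 31 also occur in another lane, and 0 of these belong to Late Neurectoderm there. The cells were unevenly spread: 17 gastruloids with at least 10 such cells held 610 of the 842 cells in the 135 gastruloids kept (72.4%), and 3 gastruloids held 328 (39.0%). The summed counts of these 17 gastruloids ranged from 137614 to 6376328 UMIs, so the values of the richer ones are the more precise.

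The label was checked against its markers as a description, since the clusters were built from the same genes. Sox1, the earliest SoxB1 marker of the neural plate, stood at 124 ± 26.8 CPM (UMI counts scaled to a common total in each lane; SD, n = 17 lanes) and was higher here than in any other type with 10 cells in at least 3 lanes, with Late Spinal Cord next at 88.9 CPM. Lanes of 1 pool hold cells of the same gastruloids, so this n and SD count lanes and not independent samples. Pax6, a paired-box factor of neural progenitors, was at 35.1 ± 23.6 CPM over lanes, with Late Spinal Cord at 27.0 CPM, but with all cells of a type summed the order turned, at 34.1 against 37.3 CPM. For Sox2, the SoxB1 factor shared by pluripotent and neural cells, Late Neurectoderm ranked below Late Spinal Cord, at 205 ± 58.8 against 256 CPM. Irx3, an Iroquois factor of the posterior neural plate, ranked the same way at 72.5 ± 39.8 against 114 CPM. All 4 markers were thus present, with Sox1 at its peak by both measures and Sox2 and Irx3 behind the Late Spinal Cord cells.

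Genes beyond the 4 markers set the cluster further apart. With all cells of a type summed into 1 value, Vgll3, a cofactor of TEAD factors, stood at 73.1 CPM, while the next cell type, Epiblast, was at 1.66 CPM. Fabp7, the brain fatty acid binding protein of radial glia, stood at 577 CPM against 117 CPM in Neurons, the next type (70 cells). Lrp2 was at 30.7 CPM against 7.12 in the next type, Fgf15 at 26.6 against 7.77, and Metrn at 104 against 40.3. In all, 220 genes were higher in Late Neurectoderm than in any other type compared at a level of at least 20 CPM, by a margin of any size. At rank 20, Rln1, the log2 ratio was 0.445. The share that 220 makes of all genes at that level is not given, so the count is no sign of how distinct the type is. These genes were picked because they were highest here, and no test was made of them.

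Detection in single cells was compared after thinning each cell to 5000 UMIs, which left out 7 members and kept 1374, with the Mature Somites (9208 cells) as a type that should lack neural genes. Sox1 had a UMI in 42.9% of Late Neurectoderm cells and in 0.34% of somite cells. For Sox2 the shares were 59.8% and 4.92%, for Pax6 14.2% and 1.18%, and for Irx3 27.7% and 10.1%. All 4 shares were above those in the somite cells, and without thinning they were 88.9%, 93.0%, 38.9% and 68.4% in Late Neurectoderm. Of the thinned cells 17.9% showed none of the 4 markers, against 0.36% of unthinned ones. The median depths were 25719 UMIs in Late Neurectoderm and 22316 in Mature Somites. Shares at or below those of somite cells were found for Hoxb2 (5.17% against 23.2%), Hoxb8 (9.53% against 16.4%), Hoxb9 (8.15% against 18.1%) and Crabp1 (35.7% against 42.5%), genes that somites also express. Otx2, the forebrain and midbrain factor, had a UMI in 1.97% of Late Neurectoderm cells and 1.11% of somite cells.

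Transcripts that define other cell types were summed over the 17 gastruloids with at least 10 members. The summed level of the 14 endothelial and blood genes ranged from 0 to 8.6 CPM, with Cdh5, Tal1, Gata2, Tie1 and the 3 haemoglobin genes at 0 in every gastruloid. The 18 somite and presomitic genes summed to 21.5 to 231 CPM, with Msgn1 and Tbx18 at 0. The 15 endoderm and notochord genes summed to 5.51 to 136 CPM, with Foxa3 and Noto at 0, and the 8 germ cell genes to 0 to 23.7 CPM, with Dppa3 and Prdm14 at 0. The 18 head and cardiac mesoderm genes summed to 6.26 to 55.1 CPM, with Gata5, Hand2 and Tbx20 at 0, and the 14 surface ectoderm and placode genes to 2.75 to 82.8 CPM. The neural crest genes, of which 13 are in the files, summed to 23.7 to 261 CPM, with Foxd3 at 0 and the highest sum at day 4.5 of the second experiment. The highest somite sum was in the first experiment at day 5. The sum of the neuron genes ranged from 317 to 962 CPM, a list that includes Cd24a, which is not confined to neurons.

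Within single gastruloids, Late Neurectoderm was set beside 3 other neural types as a description with no test, since the clustering used these genes. Similarity between types was not measured, and Caudal Neurectoderm and Neurons were not compared in this way. Against Early Spinal Cord, in 17 gastruloids with at least 10 cells of each type, 150 of 5730 genes had a median ratio of at least 2-fold higher and 98 at least 2-fold lower. Nr2f1, a nuclear receptor of the early neural plate also called COUP-TFI, showed the largest median log2 ratio, 6.77 (2.49 to 8.39 over gastruloids), at 143 CPM in Late Neurectoderm and 0.28 CPM in Early Spinal Cord, and it was higher in 17 of 17. Crabp1, a cytoplasmic retinoic acid binding protein, stood at 323 against 5.47 CPM, a median log2 ratio of 4.92. Sox21, a SoxB2 factor of neural progenitors, reached 4.54 and the dorsal factors Msx3 and Pax3 reached 4.28 and 4.12. Sox2 differed little, with a median log2 ratio of 0.47.

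Among the 98 lower genes were 5 of 8 caudal progenitor genes, with 0 higher, and 3 of 3 genes of the midbrain-hindbrain boundary. That boundary list shares Fgf8, Fgf17 and Fgf18 with the FGF list, so the counts can overlap. Of 13 FGF genes 7 were at least 2-fold lower and 2 higher, and of 14 Wnt genes 3 were lower and 4 higher. Hoxc8, a Hox gene of the trunk, stood at 7.31 CPM against 279 in Early Spinal Cord, a median log2 ratio of -6.57. Hoxa9 was at -5.76, Hoxc9 at -5.69 and Cdx2, a caudal homeobox factor that activates Hox genes, at -5.13. All 11 spinal cord Hox genes at that level were at least 2-fold lower, while of the 12 hindbrain genes 5 were at least 2-fold higher and 7 lower. Against Late Spinal Cord, in 16 gastruloids, 56 genes were at least 2-fold higher and 61 lower of 5656. Of 17 neural progenitor genes 2 were higher and 1 lower there, against 10 and 1 of 17 beside Early Spinal Cord, and 0 of 11 Wnt genes differed by 2-fold. Hoxc8 had a median log2 ratio of -5.36 there and Hoxb9 one of -3.18, at 62.8 against 308 CPM, and 9 of 9 spinal cord Hox genes were at least 2-fold lower. On the higher side were Vgll3 at 4.50, Fabp7 at 3.22, Nr2f1 at 3.10 and Fst, a follistatin that binds activin, at 2.87.

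Against Early Neurectoderm only 4 gastruloids held 10 cells of each type, and 79 genes were higher and 56 lower of 5886. Pou3f2, a POU factor of neural progenitors also called Brn2, had a median log2 ratio of 3.37, Sox21 one of 2.84, Crabp1 one of 2.51 and Sox1 one of 1.58. Among the 56 lower genes were 4 of 6 pluripotency genes, 4 of 8 caudal progenitor genes and 5 of 13 FGF genes, with 1 other FGF gene higher. L1td1 was at -2.67, Pou5f1 (Oct4), the central pluripotency factor, at -2.34 with 87.5 against 472 CPM, Epcam at -2.06 and Cdh1 (E-cadherin) at -1.77. Brachyury (T), the mesoderm and caudal progenitor factor, was at -1.76.

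**Figure D1:**
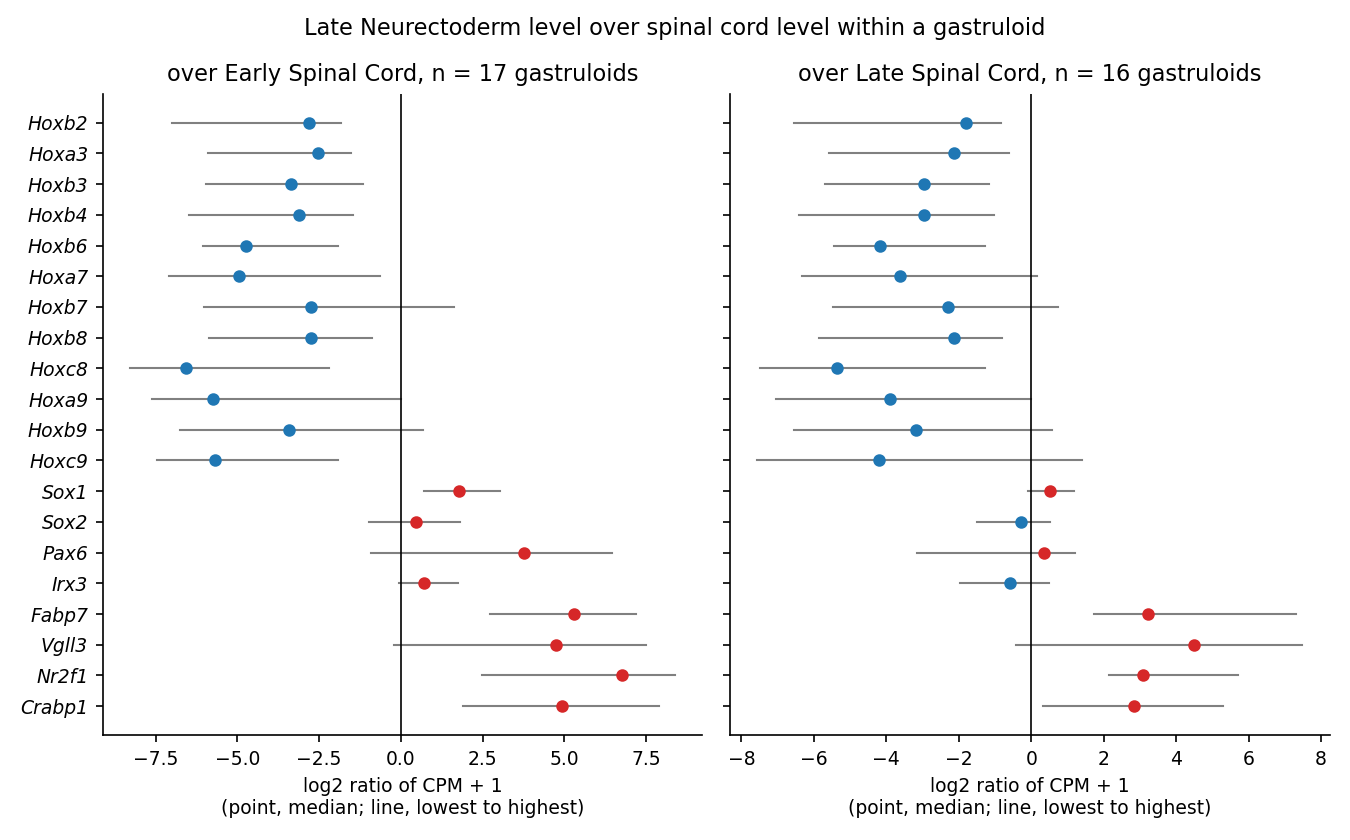
Log2 ratio of CPM plus 1 in Late Neurectoderm over Early Spinal Cord (17 gastruloids) and over Late Spinal Cord (16 gastruloids), computed within each gastruloid, for genes of at least 20 CPM in the higher type. Points are medians and lines run from the lowest to the highest gastruloid. Nr2f1, at a median of 6.77, lies at the top of the comparison with Early Spinal Cord and Hoxc8, at -6.57, at the bottom.

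Gene levels within the type were compared between days over the summed counts of gastruloids with at least 10 Late Neurectoderm cells. Day 3.5 of the third experiment gave 3 such gastruloids (59, 23 and 12 cells) and day 4 gave 2 (94 and 13). Day 4.5 gave 3 (175, 32 and 10 cells) and day 5 gave 4 (41, 13, 11 and 10), and values are given in that order throughout. Day 3.5 and day 4 were run in 1 pool and day 4.5 and day 5 in another, so a difference between day 3.5 and day 4.5 and a difference between the 2 pools cannot be told apart. The cells compared are also those that the authors' clustering kept under 1 name at both days.

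Between day 3.5 and day 4.5, 13 of 19 neural progenitor genes, 4 of 8 retinoic acid genes and 4 of 12 Notch genes that could be tested rose within Late Neurectoderm. In the other direction 4 of 8 caudal progenitor genes and 3 of 5 pluripotency genes fell, as did 5 of 10 FGF genes, of which 1 rose. Of 14 Wnt genes 6 fell and 4 rose. The lists overlap, and a shared gene counts in each, as Hes5 does for neural progenitor and Notch genes and Sp5 for caudal progenitor and Wnt genes. Hes5, the main Notch target of neural progenitors, stood at 20.9, 25.8 and 33.5 CPM at day 3.5 and at 347, 233 and 286 CPM at day 4.5. Nkx1-2, the homeobox marker of caudal neural progenitors, went the other way, from 57.1, 70.6 and 80.8 CPM to 1.27, 6.02 and 8.18 CPM. The gastruloids of the 2 days did not overlap for either gene. Overlap is described, here and below, for genes named because of the test on these same values. The share of all genes tested that lack overlap is not given, so lack of overlap adds no support to a call. The log2 fold change was 3.58 ± 0.23 (SE, derived from the test's F statistic) for Hes5 (edgeR quasi-likelihood adjusted p = 2.44e-10) and -4.67 ± 0.47 for Nkx1-2 (adjusted p = 7.96e-07).

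Over the whole table, 703 of 7133 genes rose and 520 fell at an adjusted p under 0.05, which is 17.1% of all genes tested (9.86% higher, 7.29% lower). Of the 414 genes in the 24 lists, 157 had enough counts to be tested, and 42 of them rose and 24 fell (42.0%). The count over all genes fell to 645 with DESeq2. Leaving out gastruloid Bar55 of day 4.5, the gastruloid with the most members, gave 590 genes. It was 640 without Bar30 and 680 without Bar47 of day 3.5, and 685 and 712 without lanes B and D of the day 3.5 and day 4 pool. The comparison was added after the data had been seen.

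Of the 4 markers, 3 rose and Sox1 showed no change that passed the test. Pax6 stood at 6.23, 2.28 and 0 CPM at day 3.5 and at 84.0, 38.7 and 35.5 CPM at day 4.5, a log2 fold change of 3.81 ± 0.66 (adjusted p = 0.000376). Irx3 went from 38.5, 34.2 and 19.7 to 126, 68.0 and 60.0 CPM (1.49 ± 0.26, adjusted p = 0.000337), and Sox2 from 133, 106 and 74.9 to 270, 203 and 265 CPM (1.15 ± 0.19, adjusted p = 0.000206). For these 3 genes every gastruloid of day 4.5 lay above every gastruloid of day 3.5. Sox1 was at 121, 96.4 and 146 CPM at day 3.5 and at 121, 142 and 123 CPM at day 4.5, a log2 fold change of 0.12 ± 0.19 (adjusted p = 0.722), and the 2 days overlapped. Pax6, Irx3 and Sox2 passed the test in 19 of 19 alternatives, with Irx3 at 0.94 without Bar55.

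**Figure D2:**
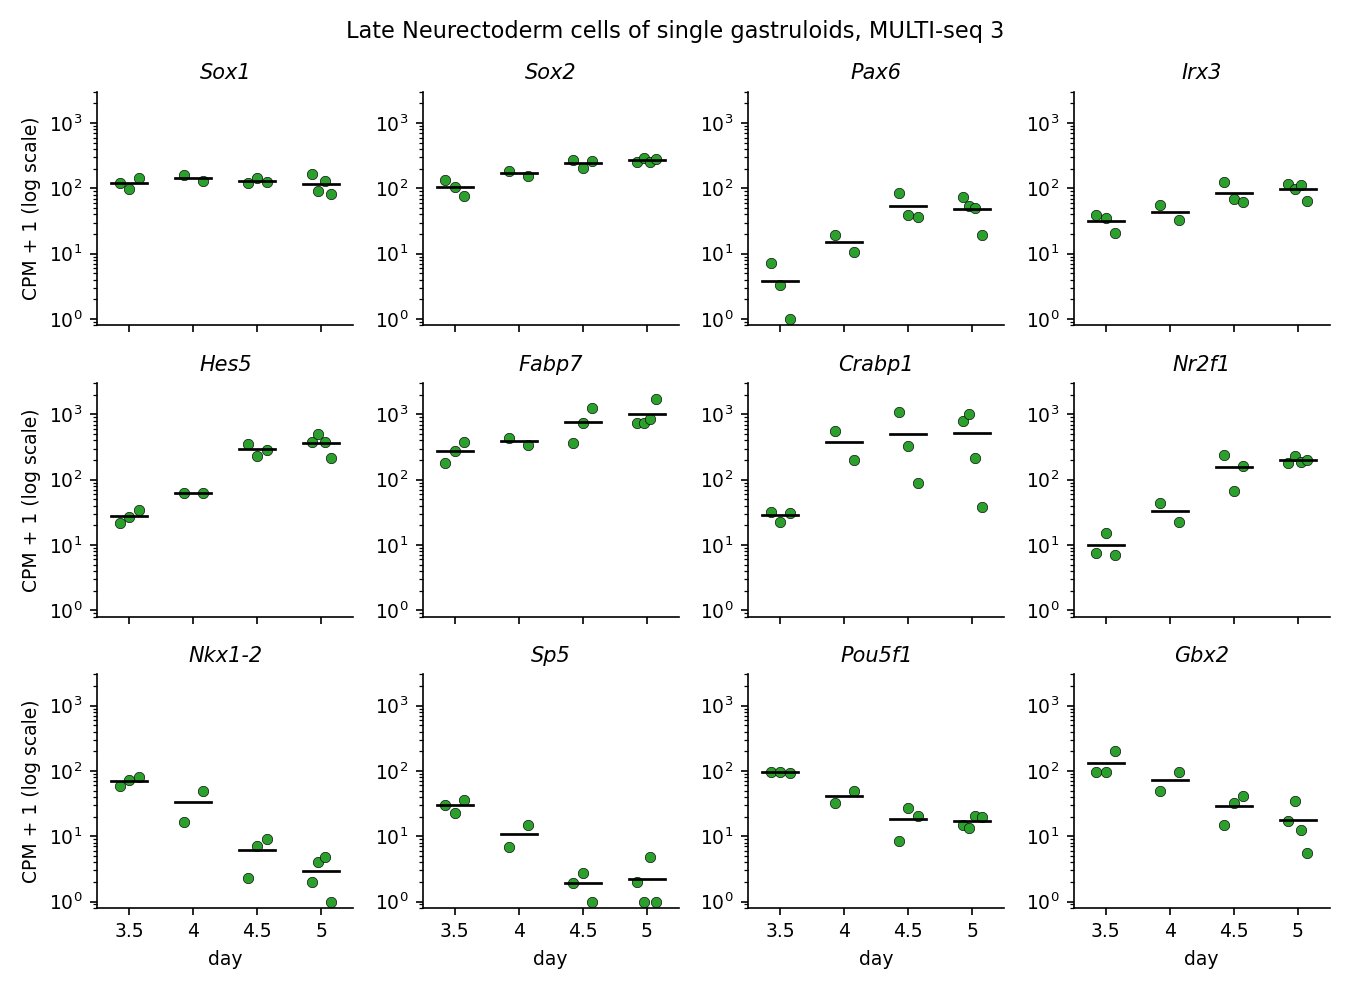
Levels of selected genes in Late Neurectoderm of the third experiment, in CPM plus 1 on a log axis, by day. Each point is a gastruloid with at least 10 Late Neurectoderm cells (3, 2, 3 and 4 gastruloids from the first to the last of the days) and each bar is the mean. Hes5 and Pax6 are higher at day 4.5 and day 5 than at day 3.5, while Nkx1-2 and Sp5 are lower and Sox1 stays near its day 3.5 level.

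Of the neural progenitor genes, 13 of 19 tested rose and 0 fell, with a median log2 fold change of 1.37 against -0.003 for all genes. Among them Rfx4, a ciliogenic factor of the neural tube, rose by 2.14 ± 0.30, Sp8, a zinc-finger factor of neural patterning, by 1.67 ± 0.27, and Irx5, the Iroquois partner of Irx3, by 1.37 ± 0.20. Each of these passed in all 19 alternatives, with Sp8 at 1.11 without Bar55. Pou3f3, a POU factor of neural progenitors, rose by 4.13 ± 0.80, but lost its call without Bar55, as did Sox21, Ncald, Lrrn1 and Nes, the last with 0.49. Fabp7 rose by 1.47 ± 0.36 (adjusted p = 0.0065), from 179, 278 and 375 to 358, 730 and 1238 CPM, with 1 day 3.5 gastruloid above the lowest at day 4.5. Without Bar30 its adjusted p was 0.0618, and without lane A of the later pool its change was 0.97. Values for other cells are means over every gastruloid of a group with at least 30 such cells, and not only over those compared. They mix all other cell types. In these other cells Fabp7 was at a mean of 41.5 CPM at day 3.5 and 29.5 at day 4.5.

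Retinoic acid binding proteins and nuclear receptors had the largest rises among the listed genes that kept their calls. Crabp2, which delivers retinoic acid to its nuclear receptors, stood at 26.7, 51.6 and 21.7 CPM at day 3.5 and at 1014, 295 and 303 CPM at day 4.5 (log2 fold change 4.05 ± 0.38, adjusted p = 1.42e-07). Nr2f2 (COUP-TFII), a nuclear receptor of the early brain, went from 3.66, 3.04 and 3.94 to 218, 62.0 and 62.7 CPM (5.23 ± 0.51, adjusted p = 3.43e-07). The related Nr2f1 went from 6.59, 14.4 and 5.92 to 236, 67.1 and 158 CPM (4.17 ± 0.45, adjusted p = 1.39e-06). For all 3 genes the days were separate, with Bar55 the highest at day 4.5. Crabp1 rose by 4.29 ± 0.78 (adjusted p = 0.000597), and its spread at day 4.5 was wide, at 1084, 325 and 87.3 CPM, with an adjusted p of 0.0877 where gastruloids with 5 cells were let in. Of the 8 retinoic acid genes tested these 4 rose and 0 fell, with a list median of 2.30. In the other cells of all gastruloids of each day, mean Crabp2 was 57.7 CPM at day 3.5 and 148 at day 4.5. Mean Nr2f2 was 0.823 and 43.6 CPM. Higher levels at day 4.5 were therefore also measured outside Late Neurectoderm.

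In the Notch list, 4 of 12 tested genes rose and 0 fell, with a median of 0.51. Besides Hes5 these were the receptor Notch1 at 1.22, its ligand Jag1 at 0.74, and Lfng, the fringe enzyme that modifies Notch receptors. Lfng stood at 2.56, 5.32 and 3.94 CPM at day 3.5 and at 28.1, 12 and 13.6 CPM at day 4.5 (2.52 ± 0.43, adjusted p = 0.000333). Notch1 and Lfng lost their calls without Bar55, at 0.62 and 1.75 (adjusted p = 0.183 and 0.0532), and Jag1 passed in 12 of 19 alternatives. In Late Spinal Cord mean Hes5 was 55.7 CPM at day 3.5 and 210 at day 4.5, and in Early Spinal Cord 28.5 and 95.6 CPM.

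The 250 bases before the starts of Hes5 and Lfng are shown, with matches to GTGGGAA, the core letters bound by the Notch mediator Rbpj, in capitals on either strand (RefSeq, GRCm38.p6, both on the plus strand). Hes5 lies at chr4:154960673-154960922, with its matches 226 bases before the start on the opposite strand and 83 bases before it on the gene's strand, and Lfng lies at chr5:140607091-140607340, with its match 109 bases before the start.
Hes5: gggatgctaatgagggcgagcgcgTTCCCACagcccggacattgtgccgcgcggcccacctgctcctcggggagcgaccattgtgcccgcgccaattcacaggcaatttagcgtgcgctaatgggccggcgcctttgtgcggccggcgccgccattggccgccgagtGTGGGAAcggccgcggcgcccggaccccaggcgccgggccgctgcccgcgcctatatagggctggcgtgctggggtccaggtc
Lfng: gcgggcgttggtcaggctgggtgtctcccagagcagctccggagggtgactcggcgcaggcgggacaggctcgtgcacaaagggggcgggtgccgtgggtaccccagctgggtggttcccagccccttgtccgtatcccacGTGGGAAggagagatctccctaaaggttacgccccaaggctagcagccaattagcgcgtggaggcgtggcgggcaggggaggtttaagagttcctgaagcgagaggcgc
A match is a run of letters and not a shown binding site. Over the 300 bases from 250 before to 50 after the start, 7.25% of all 27025 genes hold this motif in at least 1 promoter, as did 374 of the 5735 tested genes with a promoter (6.52%), 35 of the 563 genes that rose (6.22%) and 29 of the 395 that fell (7.34%). Hes5 and Lfng were shown because they hold it, and they are 2 of 18 genes of their list with a promoter. The same letters lie in a promoter of 3 of 19 Wnt list genes, so they are not particular to the Notch list.

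Of the 8 caudal progenitor genes tested 4 fell and 0 rose, with a median of -1.70. Sp5, a zinc-finger target of Wnt signalling in the tail bud, stood at 28.9, 22 and 35.5 CPM at day 3.5 and at 0.952, 1.72 and 0 CPM at day 4.5 (-4.63 ± 0.56, adjusted p = 6.34e-06). Cdx2 went from 43.2, 78.2 and 73.0 to 2.06, 8.6 and 32.7 CPM (-3.45 ± 0.64), with the smallest day 4.5 sample the highest of its day, and it lost its call with DESeq2 and was at -2.02 without Bar55. Wnt8a, a Wnt ligand of the caudal end, fell by 2.78 ± 0.55 on the log2 scale and lost its call without Bar55, at -1.69, and with DESeq2. In Early Spinal Cord, mean Nkx1-2 was 176 CPM at day 3.5 and 96.8 at day 4.5, and mean Sp5 was 102 and 40.0 CPM.

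Of the 14 Wnt genes tested, 6 fell and 4 rose. The negative feedback gene Nkd1 (naked cuticle homologue) went from 89.0, 124 and 107 to 13.3, 19.8 and 24.5 CPM (-2.71 ± 0.22, adjusted p = 2.21e-08), and Axin2, the feedback scaffold of the Wnt pathway, fell by 1.70 on the log2 scale. The nuclear mediator Lef1 fell by 2.23 and Tcf7 by 1.76, whereas the mediators Tcf7l1 and Tcf7l2 rose by 1.61 and 1.00 and the secreted Wnt binding protein Sfrp2 by 1.48. Tcf7, Fzd10, Fzd7 and Tcf7l1 lost their calls without Bar55, Tcf7 also without lane D of the earlier pool, and Tcf7l2 passed in 8 of 19 alternatives. Tnfrsf19 (Troy), a receptor encoded by a Wnt target gene, was at 111, 100 and 120 CPM at day 3.5 and at 5.24, 30.1 and 24.5 CPM at day 4.5 (-3.10 ± 0.36, adjusted p = 3.54e-06, and -1.94 without Bar55). In the other cells of all gastruloids of each day mean Nkd1 was 52.3 and 28.8 CPM, and mean Axin2 69.0 and 35.8 CPM.

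The 250 bases before the starts of 2 of these fallen Wnt targets are shown with matches to CTTTGAT, the letters bound by Tcf and Lef factors, in capitals on either strand (RefSeq, GRCm38.p6). Sp5 lies at chr2:70474673-70474922 on the plus strand with its match 104 bases before the start, and this stretch also holds GTGGGAA on the opposite strand. Tnfrsf19 lies at chr14:61037988-61038237 on the minus strand, with its match 202 bases before the start on the strand opposite to the gene.
Sp5: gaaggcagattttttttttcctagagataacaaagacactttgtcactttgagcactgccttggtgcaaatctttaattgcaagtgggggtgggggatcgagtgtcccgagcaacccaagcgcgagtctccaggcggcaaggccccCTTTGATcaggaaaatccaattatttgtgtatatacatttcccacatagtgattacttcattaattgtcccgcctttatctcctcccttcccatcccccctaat
Tnfrsf19: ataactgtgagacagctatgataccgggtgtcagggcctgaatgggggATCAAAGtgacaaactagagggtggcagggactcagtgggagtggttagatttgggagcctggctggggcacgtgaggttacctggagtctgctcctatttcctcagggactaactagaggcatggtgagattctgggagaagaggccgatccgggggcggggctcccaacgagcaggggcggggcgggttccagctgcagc
This motif lies in a promoter of 4.29% of all genes, of 170 of the 5735 tested (2.96%), of 10 of the 395 that fell (2.53%) and of 13 of the 563 that rose (2.31%). Sp5 and Tnfrsf19 were shown because they hold it. Sp5 is the only 1 of 19 Wnt list genes with a promoter to do so, with no match for Nkd1, Axin2 or Lef1 in these windows, and Nr2f2, which rose, also holds one.

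FGF feedback genes fell more often than they rose, with 5 of 10 tested lower, 1 higher and a median of -1.26. Spred1, an inhibitor of Ras signalling, fell by 1.90 on the log2 scale, its relative Spred2 by 1.34 and the receptor Fgfr1 by 0.67. The receptor Fgfr3, of the neural tube, rose by 2.55. Il17rd (Sef) and Spred2 lost their calls without Bar55, with Spred2 at -0.87, while Fgfr1 passed in 14 and Spry2, lower by 1.24, in 9 of 19 alternatives. Gbx2, a homeobox factor of the hindbrain side of the midbrain boundary and of caudal progenitors, went from 93.7, 94.2 and 203 to 13.7, 31.0 and 40.9 CPM (-2.52 ± 0.39, adjusted p = 0.000104), without overlap of the days. It was the 1 gene that fell of 3 boundary genes tested.

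Pluripotency genes fell in 3 of 5 tested cases. Pou5f1 stood at 95.2, 95.7 and 90.7 CPM at day 3.5 and at 7.46, 25.8 and 19.1 CPM at day 4.5 (-2.86 ± 0.35, adjusted p = 6.34e-06). Epcam, an epithelial adhesion protein, fell by 3.62 on the log2 scale and Dnmt3b, the de novo DNA methyltransferase, by 1.6. In the other cells of all gastruloids of each day mean Pou5f1 was 281 CPM at day 3.5 and 7.28 at day 4.5, values that were not tested. Of 13 developmental timing genes 3 fell, among them Nr6a1 and Tet1 by 0.74 and 0.68, and 2 rose, Sox9 by 3.13 and Zbtb20 by 1.18. Without Bar55 Sox9 was at 1.87 and lost its call, and Nr6a1 passed in 13 and Zbtb20 in 7 of 19 alternatives.

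Of 8 hindbrain genes tested 3 rose: Hoxa2, a Hox gene of the hindbrain, by 2.35 ± 0.46, from 5.49, 6.07 and 1.97 to 37.9, 13.8 and 13.6 CPM, and the Iroquois genes Irx1 and Irx2 by 1.16 and 1.00. Hoxa2 was at 1.38 without Bar55 and lost its call, Irx1 lost it without Bar30, and Irx2 passed in 13 of 19 alternatives. None of the 4 spinal cord Hox genes tested passed in edgeR, with a median of 1.15. Of the 4 dorsoventral genes tested, the dorsal factor Pax3 rose by 1.43 and Msx3 fell by 1.10 (adjusted p = 0.0477), passing in 17 and 11 of 19 alternatives. Dbx1, of intermediate progenitors, was at 0 in every day 3.5 gastruloid and at 32.1, 0.86 and 0 CPM at day 4.5, so its call rested on Bar55 and was lost without it (adjusted p = 0.601).

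BMP target and TGF-beta genes rose in 3 of 7 cases, Id4 by 3.60, Id3 by 1.01 and Tgfb2 by 1.97. None of these was stable: Id4 lost its call without Bar55, Id3 passed in 8 of 19 and Tgfb2 in 7 of 17 alternatives. In the cell cycle list the median was -0.03 and 5 of 25 passed, a share near the 17.1% of all genes tested. Cdkn1c (p57), an inhibitor of cyclin-dependent kinases, rose by 2.03 ± 0.39 (adjusted p = 0.000987), the mitotic genes Ccnb2, Cdc20 and Cdk1 by 0.72, 0.64 and 0.57, and Mcm4 fell by 0.48. Cdkn1c passed in all 19 alternatives, but Ccnb2 in 16, Cdc20 in 15 and Cdk1 and Mcm4 in 8 each. Of 10 neuron genes, the RNA binding proteins Elavl3 and Elavl4 rose by 1.86 and 1.45 and the filament gene Ina fell by 1.26, and without Bar55 none of the 3 was called, at 0.76, 0.76 and -0.73. The summed neuron list was at 745 to 962 CPM at day 3.5 and at 564.5 to 809 CPM at day 4.5, and the neural crest list, of which Pax3 and Sox9 rose, at 23.7 to 43.6 and 73.1 to 151 CPM. The surface ectoderm and placode list was at 46.5 to 82.8 and 8.73 to 20.6 CPM. The head and cardiac mesoderm list was at 25.6 to 39.2 and 8.18 to 21.0 CPM, and the germ cell list at 16.7 to 23.7 and 8.18 to 10.3 CPM. The somite, endothelial and endoderm lists overlapped between the days. The part of these lists in the result was not tested.

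Other genes with large rises had no list. Olfm2, an olfactomedin, rose by 4.66, Ly6h, a Ly6 family surface protein, by 4.34 and the non-coding Pantr1, next to Pou3f3, by 4.23, each in all alternatives in which it was tested. Rln1 and Insl6, neighbouring relaxin family genes, rose by 6.65 and 4.11, but the rise rested on Bar55, where Rln1 reached 105 and Insl6 177 CPM, and both calls were lost without it, at 1.95 and 1.38. The kinase gene Pim2 fell by 3.66 and the glutamate transporter gene Slc1a3 by 2.75, with their calls kept throughout.

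**Figure D3:**
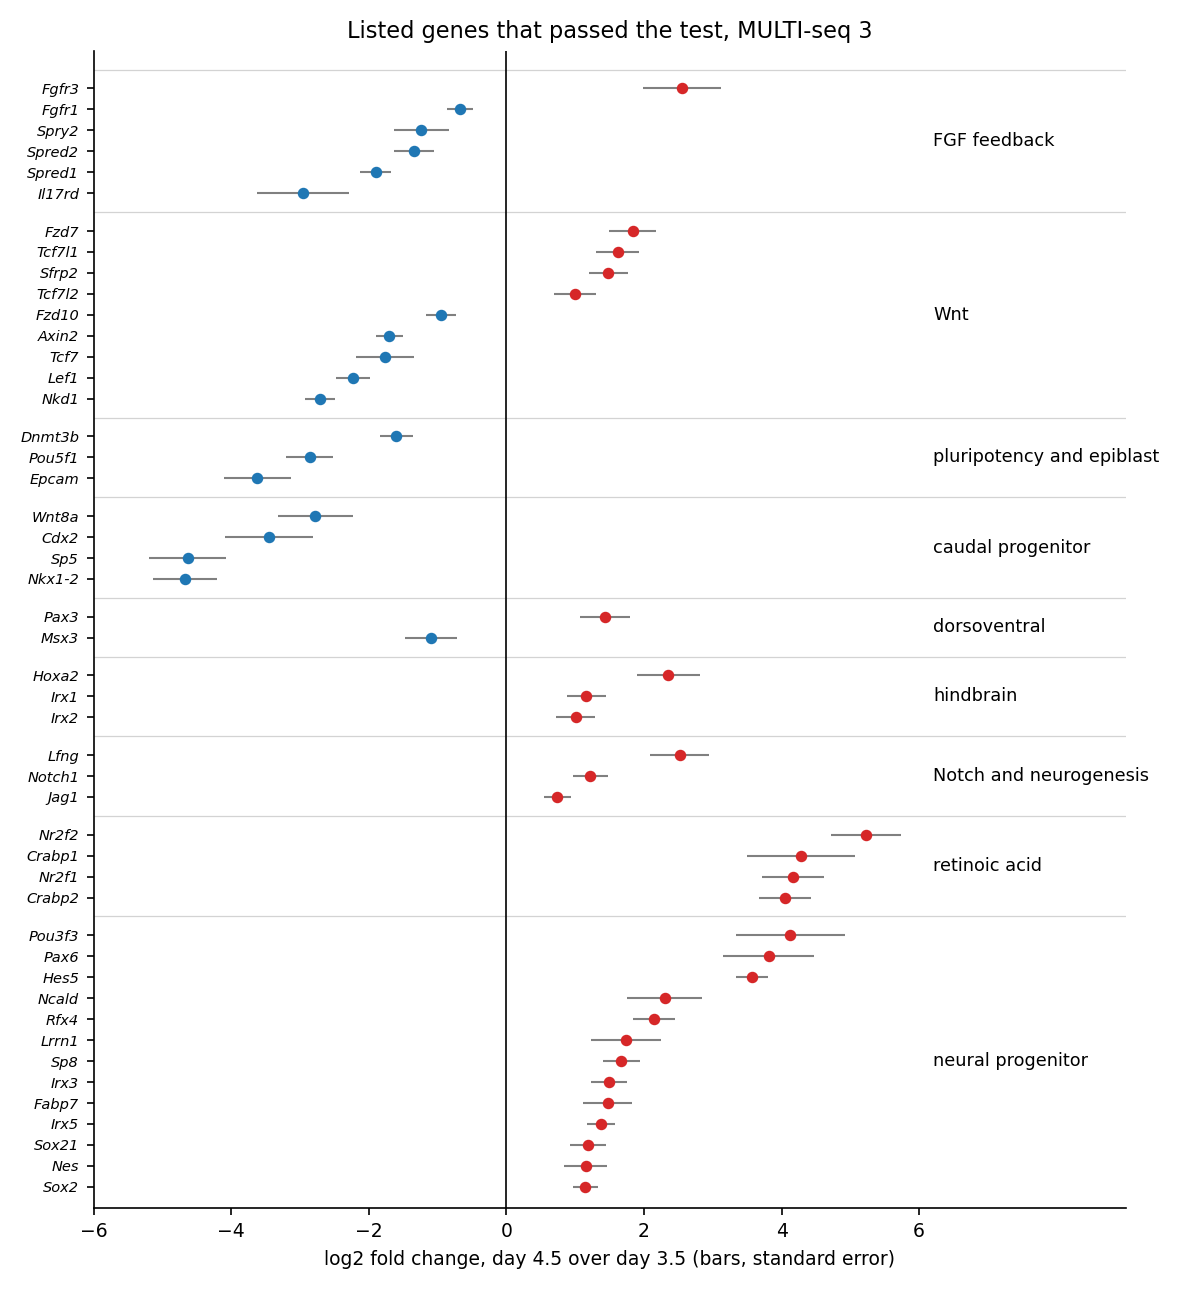
Log2 fold change (edgeR, day 4.5 against day 3.5 in the third experiment) for genes of the fixed lists with an adjusted p under 0.05. Bars are standard errors derived from the F statistic. Each gene is drawn once under the first list that holds it. Positive values are higher at day 4.5. Dbx1, at 0 in every day 3.5 gastruloid, is not drawn. Hes5 at 3.58 and Nkx1-2 at -4.67 lie on opposite sides.

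The step from day 3.5 to day 4 lay within 1 pool and shares the day 3.5 gastruloids with the comparison above. It too was added after the data had been seen. With 2 gastruloids at day 4, 2 of 7133 genes passed, both lower (0.028% of all genes), and 257 had an unadjusted p under 0.05. They were Nkd1, at 31.1 and 23.5 CPM at day 4 (-1.85 ± 0.23, adjusted p = 0.000209), and Pim2, at 7.56 and 15.7 CPM against 48.7, 35.7 and 65.1 (-2.37 ± 0.43, adjusted p = 0.0441). Nkd1 passed in 13 of 15 alternatives, losing its call without Bar22 of day 4 (adjusted p = 0.141) and without lane D (adjusted p = 0.0641), and Pim2 passed in 5 of 15. Without Bar22 day 4 keeps 1 gastruloid of 13 cells, which is assumed to vary like the other groups. Either of these left 0 genes called, and leaving out any 1 of the 3 day 3.5 gastruloids or lanes A, B or C left 1. DESeq2 called 1 higher and 1 lower gene, a fit of these 2 days alone 32 higher and 28 lower, and a fit without the filter on low counts 31 higher and 12 lower.

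Several of the genes that differed between day 3.5 and day 4.5 had intermediate values at day 4, without passing the test. Hes5 was at 61.1 and 60.7 CPM, above each day 3.5 gastruloid and below each of day 4.5. Crabp2 was at 151 and 74.4 CPM, Nr2f2 at 28.6 and 15.7, Nkx1-2 at 15.7 and 49.0, and Pou5f1 at 30.8 and 49.0 CPM, each again between the ranges of the 2 other days. Pax6 stood at 18.5 and 9.79 CPM with a log2 difference of 1.95 from day 3.5. The differences were 0.65 for Sox2, 0.53 for Irx3 and 0.34 for Sox1.

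Between day 4.5 and day 5, again within 1 pool, edgeR called 0 of 7133 genes (0%), with 510 at an unadjusted p under 0.05, and DESeq2 called 3. Without the filter on low counts edgeR called 43 (25 higher and 18 lower), and in a fit of these 2 days alone 5. Hes5 was at 383, 498, 372 and 211 CPM at day 5, with 3 gastruloids above and 1 below the range of day 4.5. Crabp2 was at 652, 715, 629 and 785 CPM, within the range of day 4.5. Sp5 stayed low at 1.00, 0, 3.84 and 0 CPM, as did Nkx1-2 at 1.00, 3.09, 3.84 and 0 CPM. The log2 differences of the markers were -0.15 for Pax6, -0.02 for Sox1, 0.08 for Irx3 and 0.12 for Sox2, each with a sign that turned in some alternatives. Without Bar55 edgeR called 2 genes.

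At day 3 no gastruloid held 10 Late Neurectoderm cells, so only 1 value from the 40 pooled cells can be given. There Sox1 was at 73.9 CPM, Sox2 at 158, Fabp7 at 328 and Pax6 at 11.9 CPM. Hes5 was at 28.3, Crabp1 at 24.6, Sp5 at 86.7, Cdx2 at 36.5 and Gbx2 at 70.2 CPM. The midbrain-hindbrain boundary factors En1 and En2 were at 30.1 and 33.8 CPM. These values have no replicate.

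Levels at the same day were also compared between experiments, to see how far they depend on the experiment. At day 4.5 the third experiment (3 gastruloids) was set against the second (3 gastruloids with 37, 19 and 15 cells). Here 208 genes were higher and 75 lower in the third experiment, 3.97% of the 7133 tested (2.92% higher, 1.05% lower). The largest log2 difference among the named genes was that of Ptk7, a receptor-like pseudokinase of planar cell polarity, at 20.2, 21.5 and 35.5 CPM in the third and 0.86, 0 and 0 CPM in the second experiment (5.26 ± 0.59, adjusted p = 1.37e-06). With the second experiment so near 0, this fitted value depends on edgeR's prior count, and without lane 2 it was 3.13 (adjusted p = 0.105). In all other cells Ptk7 was at 74.0 against 8.22 CPM. Hoxb5os, a non-coding gene of the HoxB cluster, was higher by 3.70 and passed in 5 of 16 alternatives. Pfn1, the actin-binding profilin, was at 1052, 1368 and 1284 CPM in the third and at 107, 106 and 118 CPM in the second experiment (3.49 ± 0.14, adjusted p = 7.4e-15), and Usf1, Arf5, Otub1 and Alyref were higher by 3.58, 4.26, 2.42 and 2.43. In the other cells of all gastruloids of each experiment at that day, Pfn1 was at 1220 against 111 CPM and Usf1 at 48.4 against 3.3 CPM. Differences in the same direction were thus measured outside Late Neurectoderm.

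Of the 157 listed genes tested, 9 were higher in the third experiment and 0 lower (5.73%, against 3.97% of all genes). They were 2 of 8 hindbrain genes, 1 of 4 spinal cord Hox genes, Sp8, and Mt1, Mt2, Sfrp1, Cd24a and Trim71, of which the last 5 passed in 4 to 8 of 17 alternatives. Hoxb8, a trunk Hox gene, was at 31.0, 31.0 and 68.2 against 10.3, 3.65 and 2.75 CPM (2.33 ± 0.62, adjusted p = 0.0333), Hoxb2 at 16.8, 16.3 and 16.4 against 2.58, 0 and 2.75 CPM (3.05 ± 0.84, adjusted p = 0.0392), and Hoxa2 at 37.9, 13.8 and 13.6 against 9.46, 1.82 and 2.75 CPM (2.13 ± 0.54, adjusted p = 0.0227). In all other cells Hoxb8 was at 126 against 122 CPM and Hoxb2 at 77.5 against 99.8 CPM, with no difference of that size. The 3 Hox calls were not stable: Hoxb8 passed in 5, Hoxb2 in 4 and Hoxa2 in 8 of 17 alternatives. Sp8, higher by 1.19, passed in 9. The markers did not pass, with log2 differences of 0.54 for Sox2, 0.58 for Irx3, 0.15 for Sox1 and -0.08 for Pax6. Pax6 was at 24.1, 166 and 11 CPM in the second experiment, and without the gastruloid at 166 CPM, Bar59, its log2 difference was 1.57 (adjusted p = 0.0386).

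The count of 283 genes moved with the minimum of cells, the fit and single libraries. It was 79 at a minimum of 20 cells and 109 in a fit of the 2 groups alone. It was 46 without lane 2 of the second experiment's pool (21 higher and 25 lower, 45.7% higher), 173 without lane 3, and 146 and 157 without lanes B and A of the third. It was 187 without Bar19 and 185 without Bar59 of the second experiment and 185 without Bar25 of the third. Rln1 and Insl6, higher by 4.2 and 2.63, had log2 differences of -0.39 and -0.07 without Bar55.

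At day 5 only 2 gastruloids of the first experiment held 10 members, so a minimum of 5 cells was used, giving 8 gastruloids of the third experiment and 6 of the first. There 526 of 7264 genes were higher in the third experiment and 175 lower, 9.65% of those tested (7.24% higher, 2.41% lower). The largest log2 differences among the named genes were those of Hist1h3e at 5.47, Hist1h4h at 4.68 and Hist1h3f at 4.60, single histone genes that belong to none of the 24 lists. In all other cells Hist1h3e was at 52.3 CPM in the third and 5.24 in the first experiment and Hist1h2ap at 914 and 107 CPM. The neuronal genes Neurod4, Elavl4 and Elavl3 were lower in Late Neurectoderm of the third experiment, with log2 differences of -4.61, -2.44 and -2.16. These are 2 of 13 neuron genes tested and 1 of 16 of the Notch and neurogenesis list. Over all lists 184 genes were tested, with 4 higher and 8 lower (6.52%, against 9.65% of all genes). Among the called were also Hoxb9, Top2a and Slc2a1, which were lower, and Fgf15, Id2 and Id3, which were higher. Of 19 neural progenitor genes Fabp7 was higher by 0.95, Lrrn1 and Nes were lower with -1.52 and -1.20, and the median was -0.35. The members of the 2 experiments also differed in depth and quality: their median was 24034 UMIs at day 5 of the third and 11078 in the first experiment. Their median mitochondrial share was 1.88 to 1.90% over lanes of the third experiment's day 4.5 and day 5 pool. It was 5.80 to 5.95% over lanes of the first and 5.19 to 5.31% over those of the second experiment's traced pool. Their part in the differences between experiments was not tested. The share of higher among called genes was 75% and fell to 61.2% with RLE scaling (417 higher and 264 lower). It was 63.7% with DESeq2, 61.3% in a fit of the 2 groups alone, and 82.7% without the filter on low counts. The number of lower genes was 84 without lane 2 of the first experiment (83.8% higher) and 116 without lane 1, and with each lane left out the count of called genes ran from 520 to 744. Single gastruloids were not left out here.

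The share of Late Neurectoderm among the cells of a gastruloid was small in most and large in a few. At day 4.5 the mean was 6.69% in the second experiment (SD 10.9, n = 12, median 2.38%, highest 35.6%) and 4.42% in the third (SD 10.9, n = 16, median 1.27%, highest 44.1%). At day 4 it was 0.91% in the second (SD 1.99, n = 11, median 0%, highest 6.67%) and 1.64% in the third (SD 5.11, n = 16, median 0.13%, highest 20.6%). In each of these groups the mean lay above the median.

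At day 3 the mean and the median were both 0.70% (SD 0.63, n = 24, highest 2.59%). At day 3.5 the mean was 2.67% (SD 4.90, n = 16, median 0.65%, highest 18.4%). At day 5 it was 1.39% in the first experiment (SD 3.46, n = 24, median 0.23%, highest 16.2%) and 0.86% in the third (SD 1.02, n = 16, median 0.63%, highest 4.22%). Over lanes the share ran from 0.0654% in the untagged day 3 suspension to 6.63% in lane 1 of the untraced day 4 and day 4.5 pool.

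**Figure D4:**
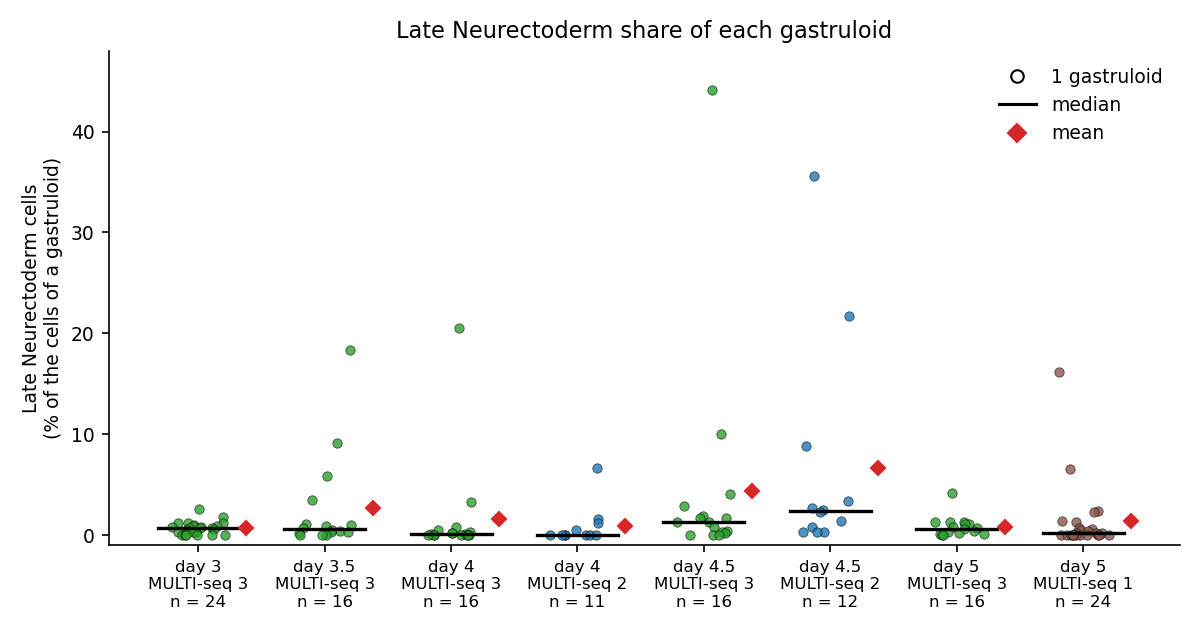
Share of Late Neurectoderm cells in each gastruloid, in percent, by experiment and day. Each point is a gastruloid with at least 30 cells, the black line is the median and the red diamond the mean. Most gastruloids lie near 0 and single ones of day 4.5 reach 44.1% in the third and 35.6% in the second experiment.

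None of the 6 comparisons of the share passed a permutation test of the difference in means (100000 resamples, two-sided, Benjamini-Hochberg over 6). Within the second experiment the difference of day 4.5 from day 4 was 5.78 percentage points (permutation p = 0.0687, adjusted p = 0.317), with all 12 gastruloids of day 4.5 above the day 4 median of 0%. Within the third, day 5 differed from day 4.5 by -3.56 points (permutation p = 0.106, adjusted p = 0.317), with 12 of 16 gastruloids below the day 4.5 median. A test of cell numbers with edgeR, an alternative, gave a log2 ratio of 3.08 for the former and -2.30 for the latter, each with an adjusted p of 0.0255. The other 4 differences were -1.03 points for day 4 from day 3.5 (a comparison added after the data had been seen), -0.529 for the third from the first experiment at day 5, -2.28 for the third from the second at day 4.5 and 0.728 for the same at day 4, with adjusted p from 0.843 to 0.873. Each of these 4 changed sign when 1 gastruloid was left out: 0.0212 without Bar30 of day 3.5, 0.114 without Bar13 of the first experiment, 0.35 without Bar61 of the second and -0.534 without Bar22 of the third experiment's day 4. The difference of day 5 from day 4.5 was -0.915 points without Bar55, and that of day 4.5 from day 4 in the second experiment was 3.15 points without Bar61.

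Gastruloids of day 4 and day 4.5 fell into 2 sets by how much of the rest of their cells was neural, with a gap of at least 25 percentage points between the sets. The Late Neurectoderm share was compared with them as a description. In the third experiment at day 4.5, the 9 gastruloids of lower neural share (2.69 to 26.0% of other cells) held a median of 0.386% Late Neurectoderm (0 to 1.91%) and the 7 of higher share (60.4 to 92.3%) a median of 2.89% (0.314 to 44.1%). At day 4 the 14 lower gastruloids held a median of 0.0471% (0 to 0.808%) and the 2 higher ones 3.33% and 20.6%. In the second experiment the medians at day 4.5 were 0.796% in 7 lower and 3.42% in 5 higher gastruloids, with ranges of 0.315 to 8.80% and 1.44 to 35.6%. At day 4 of the second experiment they were 0% in 8 lower (0 to 1.20%) and 1.64% in 3 higher gastruloids (0 to 6.67%). The medians stood higher in the sets of higher neural share, while the ranges overlapped in each case but day 4 of the third experiment.

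The Late Neurectoderm share was related to that of other types among the remaining cells, in 13 relations with Benjamini-Hochberg adjustment. This was done in groups without such sets, and within sets of at least 6 gastruloids, where both mean shares were at least 1%. Day 3 and day 5 of the third experiment, with mean Late Neurectoderm shares of 0.70% and 0.86%, were left out by this rule. The relations at day 5 of the first experiment were therefore not computed at day 5 of the third. At day 5 of the first experiment (24 gastruloids) the Late Neurectoderm share rose with the Late Spinal Cord share, with r = 0.666 (permutation p = 1e-05, the smallest these resamples can give, adjusted p = 0.00013) and rho = 0.668 (permutation adjusted p = 0.00238), and r was 0.735 without the 2 gastruloids farthest from the median. Its relation to the Mature Somites share had r = -0.436 (permutation adjusted p = 0.0749) and rho = -0.673 (permutation adjusted p = 0.00238), with r = -0.506 without those 2. At day 3.5 of the third experiment (16 gastruloids) it rose with Early Neurectoderm, with r = 0.707 (permutation adjusted p = 0.0483) and rho = 0.673 (permutation adjusted p = 0.0158), and r was 0.645 without 2. This was not particular to Early Neurectoderm by rank, since rho was 0.799 with Caudal Neurectoderm, 0.773 with Late Spinal Cord and 0.645 with Early Spinal Cord (permutation adjusted p = 0.00238, 0.00279 and 0.0182). Their r of 0.502, 0.470 and 0.201 did not pass (permutation adjusted p = 0.0749, 0.157 and 0.636), and without 2 gastruloids r was 0.439, 0.507 and 0.326. Taken as a share of all cells, the r with Early Neurectoderm was 0.639 with a permutation adjusted p of 0.0787. Among the 7 gastruloids of higher neural share at day 4.5, the r of 0.876 with Late Spinal Cord (exact permutation adjusted p = 0.184) went to -0.0407 without 2 gastruloids and rested on those.

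The authors also mapped each cell to a mouse embryo atlas, and their labels for the Late Neurectoderm cells were counted. Of the 1381 cells 336 (24.3%) were called ectoderm, 314 (22.7%) ventral hindbrain progenitors, 222 (16.1%) neural tube, 171 (12.4%) dorsal hindbrain progenitors, 95 (6.88%) dorsal spinal cord and 66 (4.78%) midbrain-hindbrain boundary. The embryo stage given most often was 9.25, for 633 cells (45.8%), and 174 cells (12.6%) were placed at stage 8.0. The median mapping score, a fraction from 0 to 1 that the authors deposited, was 0.633 (quartiles 0.467 to 0.867), against 0.7 in Early Spinal Cord and Late Spinal Cord and 0.733 in Early Neurectoderm.

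The labels differed by day, and also between experiments at the same day. At day 5 the neural tube label covered 0 of 90 cells in the first experiment and 36.3% of 113 in the third. Hindbrain labels covered 60.0% and 32.7% of them. At day 4.5 the neural tube label covered 24.5% in the second and 26.5% in the third experiment, and hindbrain labels 41.2% and 54.6%. In the third experiment the ectoderm share was 50.0% of the 40 cells of day 3 and 54.8% of the 115 of day 3.5, then 35.5% of the 124 of day 4, and 8.43% and 9.73% of the 249 and 113 cells of the last days. Hindbrain labels went from 15.0% and 10.4% at day 3 and day 3.5 to 38.7% at day 4, and were 54.6% and 32.7% on the days after. The neural tube label went from 10.0% at day 3 to 36.3% at day 5. Day 4.5 and day 5 lay in another pool than day 3.5 and day 4, so day and pool cannot be told apart between them. Per gastruloid, the ectoderm label covered 69.5%, 43.5% and 66.7% of the cells at day 3.5 and 4.0%, 18.8% and 30% at day 4.5, without overlap, and no test was made because 3 against 3 gastruloids cannot give an exact p below 0.1. The hindbrain share at day 4.5 rested on Bar55, with 68.6% of its 175 cells, against 25.0% in Bar25 and 0% in Bar56. At day 4, 40 of the 48 cells with a hindbrain label came from Bar22 (42.6% of its 94 cells). In Bar20 they were 3 of 13 cells (23.1%).

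**Figure D5:**
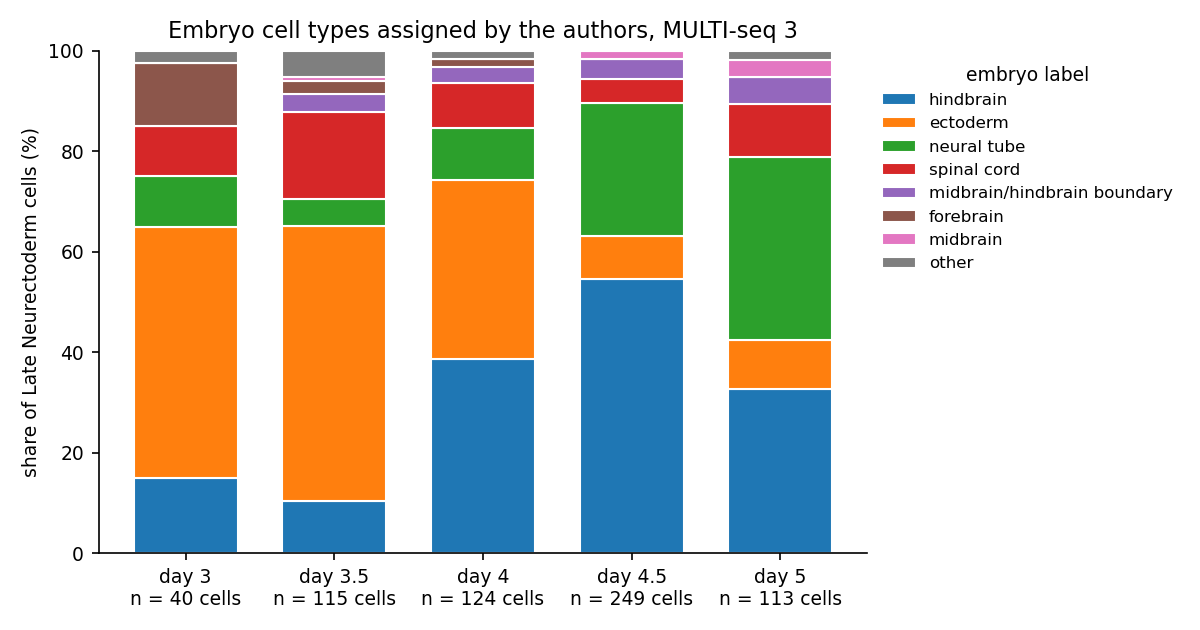
Share of Late Neurectoderm cells of the third experiment by the authors' embryo label, in percent, stacked by day (40, 115, 124, 249 and 113 cells from day 3 to day 5). The ectoderm label covers 50.0% at day 3 and 9.73% at day 5, and the hindbrain label is widest at day 4.5 with 54.6%.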

How the data were processed

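Gastruloids of mouse E14Tg2A cells were profiled by droplet 3' single-cell RNA sequencing, with MULTI-seq tags on individual gastruloids. The authors deposited UMI counts per lane, whole numbers that are not normalized, and Cell Ranger 6.0.0, Seurat and the mm10 build are named in the submitters' processing notes, with no role given there. The authors' deposited cell table gives the cluster, day and gastruloid of each cell and an embryo mapping score, which is a fraction from 0 to 1. The sources used here do not give the clustering or doublet settings. Of 77683 cells listed, 9 had no barcode in the matrices and were left out, and 18 lanes were analysed. Cells without a gastruloid call, doublet calls included, entered no comparison between gastruloids, and no further doublet caller was run.

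Counts were summed per gastruloid over Late Neurectoderm cells (at least 10), with CPM on TMM-scaled totals, and tested in 1 edgeR quasi-likelihood fit over all groups with Benjamini-Hochberg adjustment (threshold 0.05) over all genes that pass its filter on low counts. The standard error of a log2 fold change was its size divided by the square root of its quasi-likelihood F statistic. It was not given by the fit itself. Shares used gastruloids with at least 30 cells. Named genes were the 12 largest rises and the 12 largest falls of at least 20 CPM among called genes, leaving out names that start with Gm or end with Rik and mitochondrial genes, plus called genes of 24 lists and the 4 markers. For ratios within gastruloids they were the 20 largest each way. The members and lists were chosen with earlier results of these data known. Alternatives were DESeq2, RLE scaling, no filter, minima of 5 and 20 cells, a fit of the 2 groups alone, and each gastruloid and lane left out. On simulated data over 7133 genes, changes were placed only in genes with a mean of at least 20 CPM, with the spread at edgeR's fitted trend. Of 100 genes with a log2 change of 1, 89% were recovered for day 4.5 against day 3.5 and 80% for day 4 against day 3.5. It was 75% for day 5 against day 4.5 and 81% for the third against the second experiment, and 99 to 100% for a change of 2. These shares do not cover genes of lower counts or of a spread above the trend. Depth per summed sample ranged from 137614 to 6376328 UMIs, and intervals on shares cover counting error only. Promoters came from RefSeq (GRCm38.p6). Versions were Python 3.11.15, numpy 2.4.6, pandas 2.3.3, scipy 1.17.1, matplotlib 3.10.9, R 4.3.3, edgeR 4.0.16 and DESeq2 1.42.0.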

Additional observations from a re-analysis of the deposited data

Results flagged for a closer look

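Among the 4 day 5 gastruloids of the third experiment, single gastruloids stood apart from the others in Late Neurectoderm for 6 of the named genes. Fabp7 reached 1731 CPM in 1 gastruloid, Cdkn1c 581.63 CPM, Nnat 170.16 CPM, Spry2 55.097 CPM and Stxbp4 36.731 CPM, each the highest of the 4, and Hist1h2ae was lowest in 1 at 225.84 CPM. The gap to the nearest other gastruloid exceeded Dixon's 95% critical value in each case. In 111 such tests chance alone marks about 1 in 20. Fabp7, Spry2 and Stxbp4 were highest in the gastruloid with 10 cells, and the Cdkn1c, Nnat and Hist1h2ae values were those of the one with 13 cells.

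Late Neurectoderm cells were also present in lanes that no comparison between gastruloids used. Their share was 1.31% in the untagged day 4 suspension, 6.63% in lane 1 and 5.42% in lane 2 of the day 4 and day 4.5 pool of the second experiment that has no gastruloid calls.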

How the results depend on the processing

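No paired analysis was possible because the units compared are gastruloids, whose barcodes carry no number that pairs the groups, and every lane of a pool holds cells of all its gastruloids. Of 2549 values of named genes and markers under alternatives, 2505 kept their direction, 44 reversed and 471 kept it but missed the threshold. For day 4.5 against day 3.5 in the third experiment, DESeq2 called 645 genes and leaving out each gastruloid or lane gave 590 to 1038. For day 4 against day 3.5 the count was 43 without the filter on low counts, 1 at a minimum of 5 cells, 60 in a fit of the 2 groups alone and 0 to 2 with each left out. For day 5 against day 4.5 it was 3 with DESeq2, 43 without the filter, 5 in the fit alone and 0 to 2 with each left out. For the third against the second experiment at day 4.5 it was 79 at a minimum of 20 cells, 109 in the fit alone and 46 to 220 with each left out. The share of day 4.5 against day 4 in the second experiment gave 3.08 with edgeR on cell numbers and 3.12 as log2 of the share plus 0.1 (added after seeing the data), both past the threshold, and that of day 5 against day 4.5 gave -2.30 with edgeR. Day 5 of the third against the first experiment reversed to 1.51 points as a share of neural cells and to 0.644 on the log2 scale, and day 4 against day 3.5 to 4.01 points as a share of neural cells. With each gastruloid or lane left out, the differences ran from -0.753 to 0.114, from -4.92 to 0.35 (day 4.5, the third against the second), from -0.534 to 1.56 (day 4, same) and from -2.29 to 0.0212 (day 4 against day 3.5). As shares of all cells, the relation to Early Neurectoderm at day 3.5 had r = 0.639, past no threshold, and that to Mature Somites at day 4.5 of the second experiment r = -0.0771. For log2 differences with each left out, day 5 against day 4.5 gave Sox2 -0.21 to 0.25, Sox1 -0.35 to 0.44, Irx3 -0.10 to 0.64 and Pax6 -0.54 to 0.56. The third against the second experiment gave Pax6 -0.78 to 1.57, Sox1 -0.24 to 0.48, Insl6 -0.067 to 3.55 and Rln1 -0.39 to 9.09. Day 4.5 against day 3.5 gave Sox1 -0.019 to 0.25, day 4 against day 3.5 Irx3 -0.11 to 0.72, and the third against the first experiment (lanes alone left out) Sox2 -0.17 to 0.081 and Sox1 -0.13 to 0.046. A minimum of 5 cells turned Sox1 to 0.014 and Irx3 to -0.20 (day 5 against day 4.5), Sox1 to -0.081 (the third against the second) and to -0.087 (day 4.5 against day 3.5). A minimum of 20 turned Sox1 to 0.33 and Pax6 to 0.092 (day 5 against day 4.5), and Pax6 to 1.49 and Sox1 to -0.15 (the third against the second). Sox2 in the third against the first experiment turned to -0.030 with DESeq2, -0.061 with RLE scaling and -0.080 in the fit alone. A minimum of 20 cells keeps 1 gastruloid in the second experiment's day 4.5 (Bar61), and 1 each at day 4 (Bar22) and day 5 (Bar2) of the third, all assumed to vary like the other groups. The cause was not tested for any of these. Gene levels of day 4 in the second experiment could not be fitted, since 0 gastruloids held 10 cells.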

Other observations

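A small number of Late Neurectoderm cells carried Otx2, the factor of the forebrain and midbrain, and these cells were looked at after their values had been seen, as a description with no test. Otx2 had at least 2 UMIs in 32 of the 1381 cells, with a median depth of 32087 UMIs per cell against 25651 in the others. Among them were 7 of the 8 Late Neurectoderm cells of Bar49 of the third experiment at day 4.5, 6 of the 19 of Bar59 of the second experiment at day 4.5 and 3 of the 8 of Bar13 of the third experiment at day 5. The rest were spread over other gastruloids or had no gastruloid call. In Bar55, the gastruloid with the most Late Neurectoderm cells, 1 of 175 had an Otx2 UMI.

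The Otx2 cells carried other genes of the anterior brain more often than the remaining 1342 cells without an Otx2 UMI. Wnt1, the ligand of the midbrain-hindbrain boundary, had a UMI in 28.1% of them against 0.447% of the others, and Emx2, a homeobox factor of the forebrain, showed the same 2 shares. Lhx5, a LIM factor of the anterior neural plate, was found in 25.0% against 0.969%, and Six3, of the forebrain, in 15.6% against 0.298%. En1 and En2, which flank the boundary, were found in 56.3% against 9.39% and 53.1% against 10.5%. Some genes were found less often in the Otx2 cells, with Sox1 in 71.9% against 89.2%, Meis2 in 46.9% against 83.3%, Hoxa2 in 3.13% against 23.8%, Gbx2 in 12.5% against 51.1%, Vgll3 in 3.13% against 30% and Crabp1 in 18.8% against 55.6%. Other genes of the neural tube were found more often in them, with Crabp2 in 93.8% against 77.7%, Nr2f1 in 87.5% against 62.4%, Tcf7l2 in 78.1% against 54.6% and Pax6 in 50.0% against 38.7%. Sox2 was found in 31 of the 32 cells. These cells differ in depth from the others and share gastruloids, and the part of either in these shares was not tested.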
